A study of Sus scrofa with 32 samples.

Results

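The semimembranosus (S), a ham muscle of the hind limb, was compared with the longissimus dorsi (LD), the loin muscle that runs along the back, in Polish Landrace (PL) pigs. The comparison held 16 of the 32 RNA-seq libraries of the series, 8 labelled S and 8 labelled LD, and was chosen by the muscle and breed in the labels. The labels carry an animal number, so each S library was set against the LD library of the same pig (pigs 7, 8, 9, 10, 12, 14, 15 and 18). All were unrelated, untreated females, given as 180 days old in the labels. The study slaughtered pigs by body weight and correlated gene levels with age at slaughter, so that age may not hold for each pig. The labels also file PL under low shear force, a measure of meat firmness. That label and the study's own description of PL meat as the firmer point opposite ways, so it was not used here. The other 16 libraries came from the same muscles of 8 Puławska (PUL) females with the same age in the labels and are used below only as a yardstick. Whole muscle was sequenced, so a lower count cannot be told apart between fewer cells of a type and less RNA per cell.

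Both muscles are mostly fast-twitch in pigs, but they arise in different parts of the embryo. LD belongs to the muscles of the trunk and S to those of the hind limb. Cells keep a record of that position in the HOX genes, which code for transcription factors laid out along the body axis in the order of the genes in each cluster. ZIC genes code for zinc finger transcription factors of the dorsal neural tube and dorsal somites. Muscles also differ in the share of slow, oxidative fibres, in connective tissue and in how strongly they respond to handling and slaughter.

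Libraries held 8.82 to 23.0 M counts in S (median 14.7 M) and 12.3 to 22.2 M in LD (median 15.6 M), where M stands for mega. S had the larger total in 4 of 8 pigs (exact sign-flip permutation test over 8 pairs, two-sided, p = 0.555, smallest possible p 0.00781). The 10 most abundant genes took 33.1 to 43.0% of the counts in S and 35.9 to 48.9% in LD. The shallowest was the library labelled S of pig 8. That labelled S of pig 14 gave 1.37% of its counts to the 13 mitochondrially encoded genes, against 6.17 to 12.1% in the other S libraries.

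Before the muscles were compared, the labels were checked with genes that separated S from LD in PUL, where none of these pigs took part. In PUL, 7 of 10771 genes (0.065%) had no overlap between the 8 S and the 8 LD libraries. For each of them a PL library was placed on the S side or the LD side of the midpoint of the gap. S libraries of pigs 7, 9, 10, 12, 15 and 18 lay on the S side for 6 or 7 of the 7 genes, and LD libraries of every pig but pig 14 did so for 0 or 1. The library labelled S of pig 8 lay on the S side for 2 of 7 genes and the library labelled S of pig 14 for 1 of 7. The library labelled LD of pig 14 lay on the S side for 6 of 7. Thus 3 of the 16 PL libraries went against their labels by these genes, and the 16 PUL libraries lie on their own side by construction.

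ZIC1 showed it most plainly. Its level in LD was 2.73 to 7.07 CPM (counts scaled to a common library total) in 7 pigs and 0.0638 CPM in the library labelled LD of pig 14. In S it was 0.159 to 0.330 CPM in 6 pigs, 3.74 CPM in the library labelled S of pig 8 and 2.69 CPM in that of pig 14. HOXA11, a gene of the hind limb programme, ran the other way. It was at 0.571 to 1.3 CPM in S of 6 pigs, at 0.226 CPM in the library labelled S of pig 8 and at 0 in that of pig 14. The library labelled LD of pig 14 held 0.510 CPM of HOXA11, and the other LD libraries held 0 to 0.0749 CPM.

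**Figure D1:**
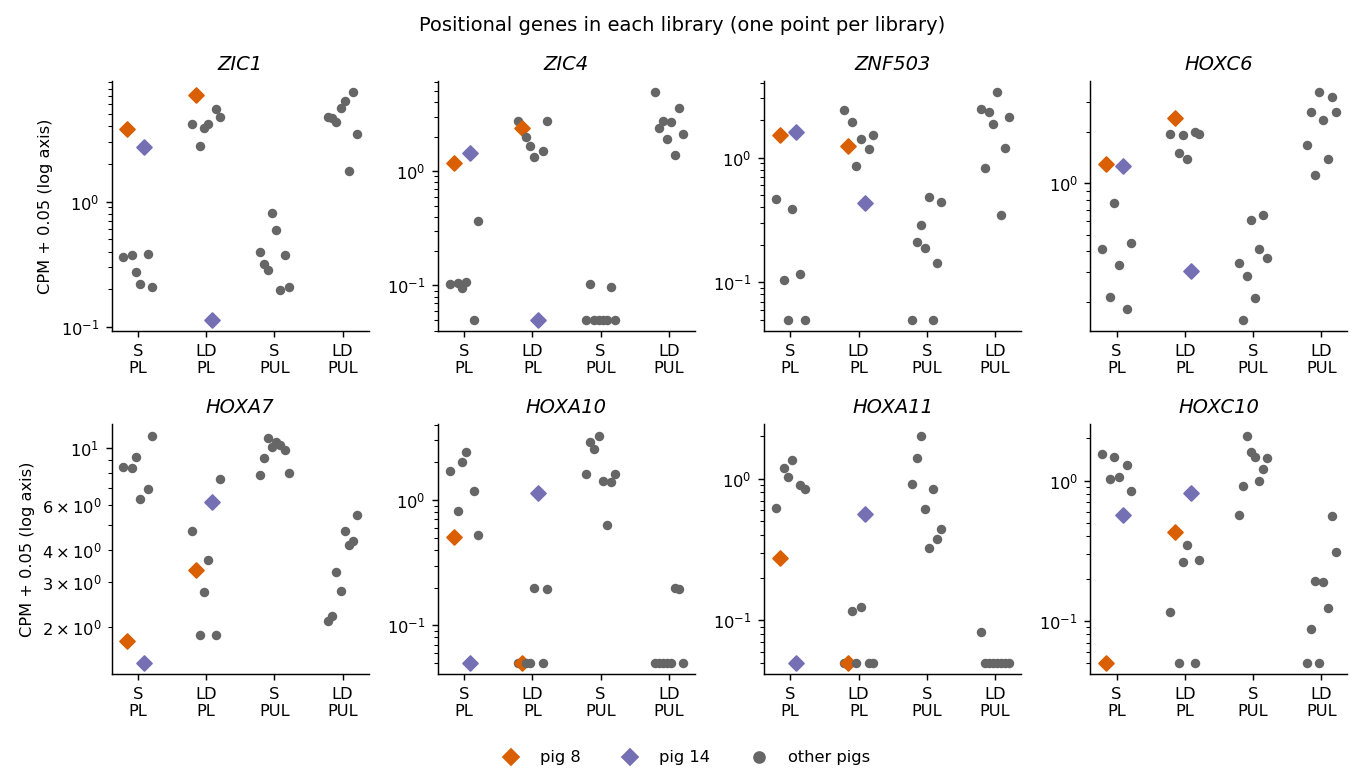
CPM plus 0.05, on a log axis, of 8 positional genes in each library, with S and LD of PL and of PUL side by side and one point per library. Pigs 8 (orange diamonds) and 14 (purple diamonds) are marked: the points labelled S of both pigs lie among LD for ZIC1 and in or just below the LD range for ZIC4, and the point labelled LD of pig 14 lies among S.

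The origin of each library was also compared by genes whose level is particular to a pig. Such genes were taken to agree between the muscles of a pig (agreement above 0.9, variance above 0.3 on the log2 scale), and for each pig they were chosen without that pig and without pigs 8 and 14, which left 33 to 42 genes. The S library was most like its own LD library in 15 of 16 pigs, the exception being pig 8. For pig 8 the correlation across 34 genes was 0.476 with its own LD library and 0.855 with the LD library of pig 9. The S library of pig 7 also reached 0.836 with the LD library of pig 9, so 0.855 lies near a value between different pigs. Levels were centred within each muscle over both breeds, so genes that differ between the breeds can be among those chosen. The libraries labelled S and LD of pig 14 matched each other best, with a correlation of 0.667 across 34 genes, while the other PL pigs reached 0.805 to 0.965. These correlations are across genes of single libraries and are given as a description. Whether tissue, tubes or labels account for the 3 libraries was not tested, no library was relabelled, and counts of genes are given below with all 8 pigs and with pigs 8 and 14 left out. That second set was chosen after these values were seen. ZIC1, ZIC4, HOXC6, HOXA7, MSS51 and ENSSSCG00000016700 were among the 7 genes of the check, so their values over the 6 pigs are a description, and a p printed for them there is no support.

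**Figure D2:**
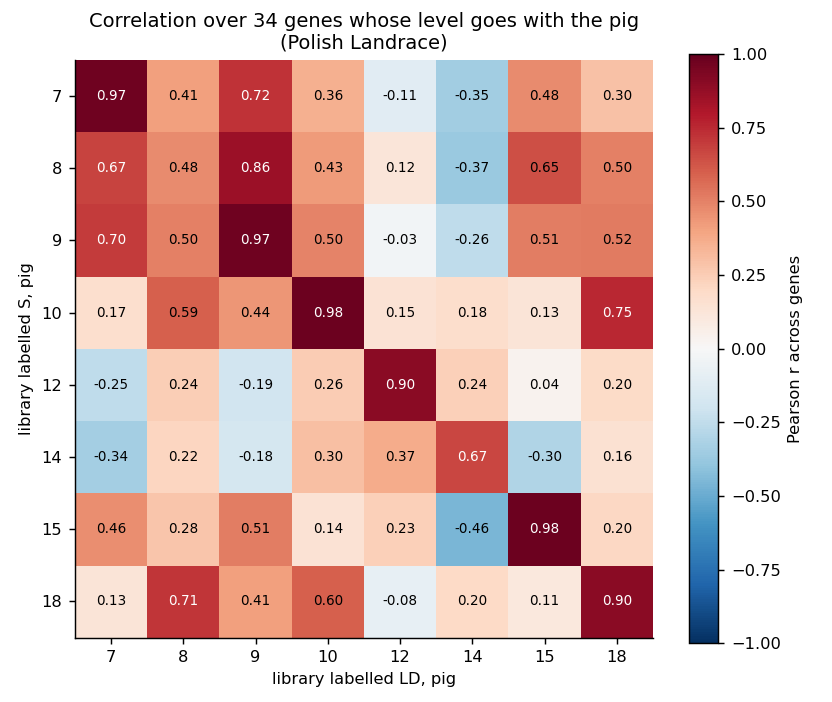
Pearson correlation across 34 genes whose level goes with the pig, between each library labelled S (rows) and each library labelled LD (columns) of PL. The genes were chosen on the 14 pigs other than 8 and 14, which favours the diagonal for the 6 others, and the row of pig 8 is highest at pig 9 (0.855).

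Across the genome, no gene separated S from LD over all 8 pigs. Of 10680 genes tested with edgeR's quasi-likelihood test, paired by pig, 0 passed an adjusted p of 0.05 with a fold change of at least 1.3 (0% of genes tested). At an unadjusted p under 0.05 there were 62 genes higher in S (0.581%) and 82 higher in LD (0.768%). DESeq2 called 1 gene of those it tested (0.00519%), ENSSSCG00000024577, which has no symbol. In none of the 10680 genes were the 8 S values clear of the 8 LD values.

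Without pigs 8 and 14, 3 of 10821 genes were called (0.0277%): ZIC1 and ZIC4 were higher in LD and HOXA11 was higher in S. ZIC1 and ZIC4 were used in the check that led to the omission and HOXA11 is a gene of the same kind, so these calls are a description. With each of the 6 pigs left out in turn, ZIC1 was called in 6 of 6 fits (adjusted p 0.00503 to 0.0174), ZIC4 in 3 of 6 (0.0114 to 0.110) and HOXA11 in 0 of the 4 that tested it (0.0593 to 0.116). The count at an unadjusted p under 0.05 was 456 genes higher in S (4.21%) and 331 higher in LD (3.06%). DESeq2 called 78 genes over the 6 pigs (0.421% of the genes it tested), 60 higher in S and 18 higher in LD. Without the pairing by pig, edgeR called 6. The S and LD values of the 6 pigs did not overlap for 48 of 10821 genes (0.444%), and 498 genes (4.60%) had one direction in each of the 6 pigs, where signs drawn at random give 3.12%. Pig 14 lay in the opposite direction for 76 of the 78 genes that DESeq2 called, and pig 8 for 29 of 78. The 78 were called without these pigs, and the share over all genes is not given here, so both counts are a description. Leaving out pig 14 alone brought the count at an unadjusted p under 0.05 from 144 to 943, still with 0 called. Leaving out pig 8 alone gave 122, also with 0 called, and leaving out both gave 787.

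Genes of body position gave all 3 calls of edgeR over the 6 pigs. In LD of 7 pigs, ZIC4 ran from 1.27 to 2.71 CPM and ZNF503, which codes for a zinc finger repressor, from 0.805 to 2.37 CPM. ZIC4 was at 0 to 0.318 CPM in S of the 6 pigs and ZNF503 at 0 to 0.416 CPM. The libraries labelled S of pigs 8 and 14 held 1.13 and 1.39 CPM of ZIC4, inside or near the LD range. With all 8 pigs the log2 fold change (S over LD) of ZIC4 was -3.01 ± 1.02 (SE, edgeR adjusted p = 1), and over 6 pigs it was -4.59 ± 0.46 (adjusted p = 0.0109). For ZIC1 the corresponding values were -2.85 ± 0.89 (adjusted p = 1) and -3.99 ± 0.30 (adjusted p = 0.00145). ZNF503 had -2.19 ± 0.84 over 8 pigs (adjusted p = 1) and -3.49 ± 0.57 over 6 (edgeR adjusted p = 0.134, DESeq2 0.000188).

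HOX genes went both ways. HOXC6, from the middle of the HOXC cluster, was at 1.35 to 1.95 CPM in LD and 0.132 to 0.714 CPM in S of the 6 pigs. Its log2 fold change was -1.72 ± 0.55 with 8 pigs (adjusted p = 1) and -2.41 ± 0.35 with 6 (adjusted p = 0.123, DESeq2 0.000487). HOXC10, a posterior gene of the same cluster, was at 0.795 to 1.51 CPM in S and 0 to 0.3 CPM in LD of the 6 pigs. HOXA10, another posterior gene, was at 0.477 to 2.37 CPM in S and at 0 to 0.150 CPM in LD. HOXA7 was detected in every library, at 6.27 to 11.1 CPM in S and 1.8 to 7.54 CPM in LD of the 6 pigs, with S higher in each. The libraries labelled S of pigs 8 and 14 held 1.70 and 1.39 CPM of HOXA7, below every LD library. The library labelled LD of pig 14 held 6.12 CPM, inside the LD range of the 6 pigs and below their S range. HOXA7 had a log2 fold change of 0.71 ± 0.44 with 8 pigs and 1.31 ± 0.25 with 6 (edgeR adjusted p = 0.215, DESeq2 0.00319).

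HOXD9 overlapped between the muscles. It ran from 5.14 to 10.6 CPM in S and from 5.43 to 15.0 CPM in LD of the 6 pigs, with a log2 fold change of -0.15 ± 0.17. HOXA5 had 0.25 ± 0.25 over 8 pigs and 0.51 ± 0.20 over 6, with S higher in 5 of 6 and overlapping levels. Of the 10 HOX genes tested over 6 pigs, 4 were higher in S and 1 was higher in LD at an unadjusted p under 0.05. Among the 15 other positional factors tested, 3 were on each side. Of all genes tested, 4.21% were higher in S and 3.06% higher in LD at that level. HOXA7, HOXC6, ZIC1 and ZIC4 were genes of the check that led to the omission, so both counts are a description. IRX3, an Iroquois transcription factor, was higher in LD in each of the 6 pigs (-1.71 ± 0.52, adjusted p = 0.547) and TBX18 was higher in S in each (1.27 ± 0.41, adjusted p = 0.557). The counting is not stated to use strand, so reads of HOXA genes and of antisense transcripts that overlap them cannot be told apart.

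In PUL, ZIC1 (-3.78 ± 0.24), ZIC4 (-6.94 ± 0.45) and HOXC6 (-2.77 ± 0.30) fell and HOXA7 (1.49 ± 0.18) rose in S against LD there, with edgeR adjusted p between 2.48e-05 and 0.0106. These 4 were among 7 genes called of 10771 tested in PUL (0.0650%). The others were MSS51 and ENSSSCG00000025216, lower in S, and ENSSSCG00000016700, higher in S. In PL, ENSSSCG00000016700 was at 3.16 to 4.87 CPM in S and 0 to 1.10 CPM in LD of the 6 pigs (3.85 ± 0.71, adjusted p = 0.201), at 0 and 0.608 CPM in the libraries labelled S of pigs 8 and 14, and at 3.38 CPM in the library labelled LD of pig 14.

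Connective tissue genes were higher in S in most pigs. The list of collagens and matrix proteins held 35 tested genes, of which 0 were called over 8 pigs, 2 were higher in S and 0 higher in LD at an unadjusted p under 0.05. Its median log2 fold change was 0.43 over 8 pigs and 0.62 over 6, where 15 of 34 tested genes were higher in S and 0 higher in LD at that level, against 4.21% and 3.06% of all genes tested. Over 6 pigs edgeR called 0 of the 34. The median of all genes tested was 0.00 over 8 pigs and -0.01 over 6. The summed level of the list ran from 1813 to 6442 CPM in S and from 922 to 7260 CPM in LD, was higher in S in 6 of 8 pigs, and was highest of all in the library labelled LD of pig 14. In PUL the list had a median log2 fold change of 0.21. There 3 of 33 genes were higher in S and 2 higher in LD at an unadjusted p under 0.05, against 530 and 380 of all 10771 genes.

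TNXB codes for tenascin X, a matrix glycoprotein that spaces collagen fibrils. It stood at 97.9 to 180 CPM in S of the 6 pigs (median 153) and at 34.3 to 103 CPM in LD (median 63.9), with S higher in each pig. The library labelled LD of pig 14 held 258 CPM of TNXB and the one labelled S held 87.5 CPM. The log2 fold change was 0.71 ± 0.36 with 8 pigs (adjusted p = 1) and 1.17 ± 0.25 with 6 (edgeR adjusted p = 0.295, DESeq2 0.00177). COL14A1, a fibril-associated collagen of muscle connective tissue, had 0.83 ± 0.55 with 8 pigs and 1.29 ± 0.36 with 6 (DESeq2 adjusted p = 0.0222). Its levels over the 6 pigs overlapped, at 36.1 to 170 CPM in S and 20.8 to 79.2 CPM in LD.

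BGN (biglycan) and ASPN (asporin), which bind collagen, had 0.82 ± 0.59 and 0.85 ± 0.55 over 8 pigs. Over 6 pigs they had 1.24 ± 0.35 and 1.29 ± 0.36, each higher in S in 5 of 6. FMOD (fibromodulin), of the same protein family, had 0.55 ± 0.55 over 8 pigs and 0.81 ± 0.42 over 6, higher in S in 4 of 6. Versican (VCAN) and thrombospondin 1 (THBS1) had 0.93 ± 0.60 and 1.15 ± 0.57 over 8 pigs, and 0.96 ± 0.22 and 1.32 ± 0.34 over 6, where S was higher in each pig. For both, the highest level of all 16 libraries was in the library labelled S of pig 8, at 62.7 CPM of VCAN and 103 CPM of THBS1. ELN, the elastin gene and the matrix gene with the smallest p over 8 pigs, had 0.84 ± 0.31 (adjusted p = 1) and was higher in S in 7 of 8 pigs. SPARC had -0.02 ± 0.25 over 8 pigs and -0.31 ± 0.22 over 6, and COL6A1, a microfibrillar collagen, 0.57 ± 0.57 and -0.20 ± 0.40, so neither shared the direction beyond its error.

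The next genes were picked, after their values were seen, from those with a small p over the 6 pigs, and form no list. PLAU, the urokinase plasminogen activator, was at 21.7 to 42.5 CPM in S (median 25.7) and 7.43 to 20.2 CPM in LD (median 9.75) of the 6 pigs, with no overlap. The library labelled LD of pig 14 held 58.0 CPM and the one labelled S 9.21 CPM. Its log2 fold change was 0.92 ± 0.44 with 8 pigs and 1.39 ± 0.22 with 6 (edgeR adjusted p = 0.124, DESeq2 1.97e-05). LOXL1, an elastin and collagen crosslinking enzyme, was at 5.64 to 12.1 CPM in S and 1.57 to 4.40 CPM in LD of the 6 pigs, also with no overlap. LOXL1 had 0.68 ± 0.52 over 8 pigs and 1.36 ± 0.26 over 6. PI16, a marker of universal fibroblasts, had 0.82 ± 0.72 and 1.70 ± 0.38, and CCN3, a matricellular protein, 0.98 ± 0.51 and 1.61 ± 0.32. DESeq2 gave adjusted p of 0.00193, 0.00121 and 0.000638 for these 3 genes over 6 pigs. IL18, a cytokine of the interleukin 1 family, was at 7.39 to 12.8 CPM in S and 1.27 to 5.72 CPM in LD of the 6 pigs, and MYOF (myoferlin, a membrane repair protein) at 6.96 to 11 and 2.69 to 6.87 CPM. Over 8 pigs IL18 had 1.02 ± 0.54 and MYOF 0.68 ± 0.40.

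**Figure D3:**
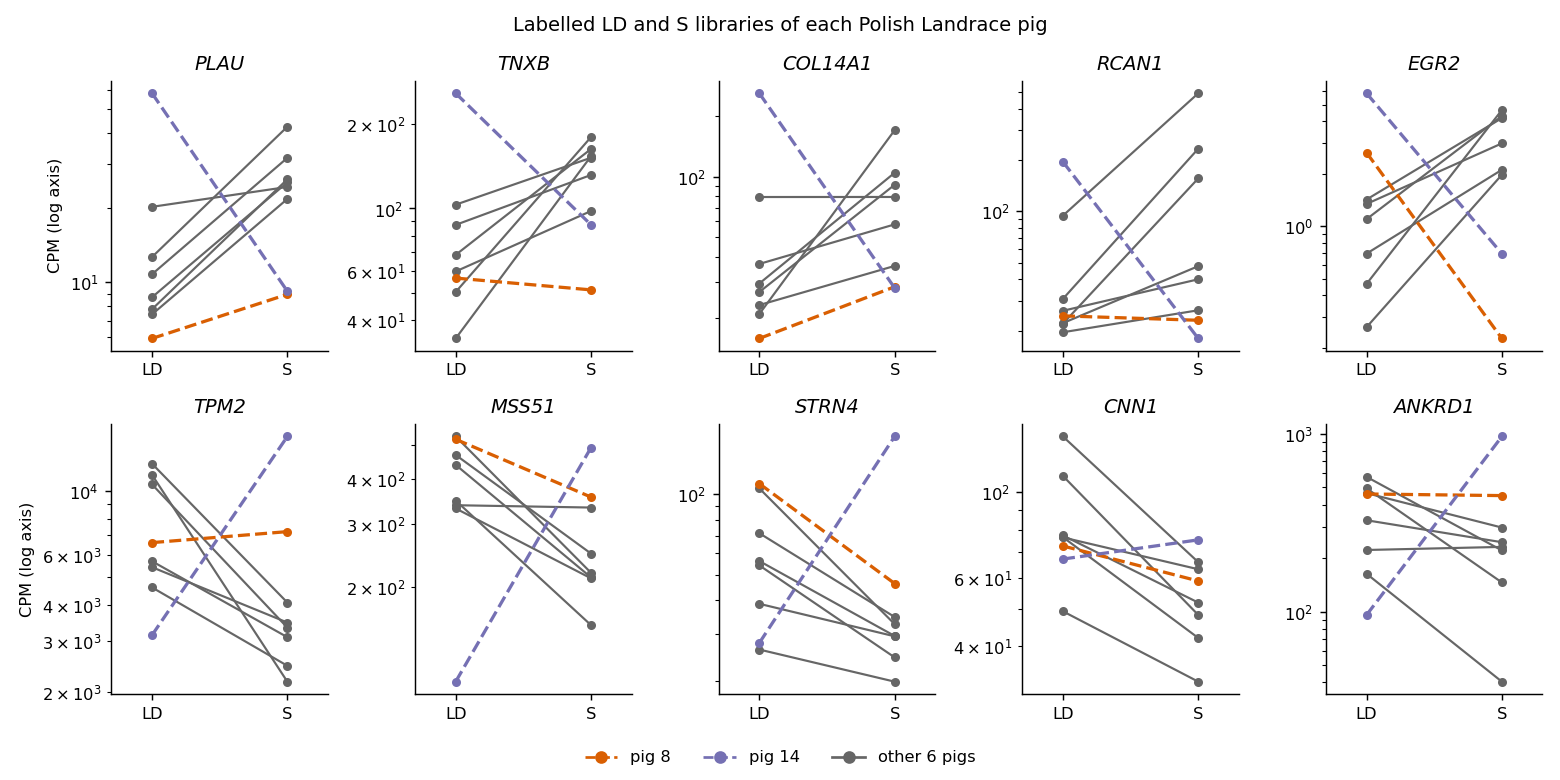
CPM on log axes of 10 genes in the libraries labelled LD and S of each PL pig, joined by a line per pig. PLAU, TNXB, RCAN1 and EGR2 go up from LD to S in each of the 6 pigs drawn in grey, TPM2, STRN4, CNN1 and MSS51 go down, and pig 14 (purple, dashed) runs the other way for all 10.

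Early-response genes, which muscle induces within minutes of stress, were higher in S over the 6 pigs. Of 16 tested, edgeR called 0, and 12 were higher in S and 0 higher in LD at an unadjusted p under 0.05 (4.21% and 3.06% of all genes), with a median log2 fold change of 0.74. Over all 8 pigs the median was 0.23 and 0 of 16 reached that level. In PUL the median was 0.86, with 11 of 16 higher in S and 0 higher in LD at that level, against 530 and 380 of all 10771 genes. EGR2 was at 1.97 to 4.65 CPM in S and 0.263 to 1.42 CPM in LD of the 6 pigs, with no overlap. In pigs 8 and 14 the order was the opposite, with 2.64 and 5.80 CPM in the libraries labelled LD against 0.226 and 0.695 CPM in those labelled S. The log2 fold change of EGR2 was 0.995 ± 0.75 over 8 pigs and 1.97 ± 0.33 over 6 (edgeR adjusted p = 0.134, DESeq2 0.000487). FOS, EGR1 and ATF3, all transcription factors of this response, had 0.16, 0.11 and 0.35 over 8 pigs and 0.79, 1.04 and 1.10 over 6. CCN1 and CCN2, matricellular genes induced by stretch, had 0.39 ± 0.43 and 0.73 ± 0.53 over 8 pigs and 0.89 ± 0.19 and 1.28 ± 0.36 over 6. JUNB (0.55 over 6 pigs) and IER3 (0.42) did not reach that level.

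The summed level of the early-response list was uneven within each muscle. In S it was 1826 to 2536 CPM in pigs 7, 9, 12 and 15 and 675 to 890 CPM in the other 4. In LD it was 2118 CPM in the library of pig 14, 3564 CPM in that of pig 8 and 664 to 1271 CPM in the others. RCAN1, of the calcium handling list, codes for an inhibitor of calcineurin that calcium signalling induces. It ran from 26.3 to 492 CPM in S of the 6 pigs (median 102) and from 19.6 to 94.4 CPM in LD (median 24.1), with S higher in each pig. Its log2 fold change was 1.02 ± 0.63 over 8 pigs and 1.71 ± 0.38 over 6 (edgeR adjusted p = 0.353, DESeq2 0.000237), and 1.69 ± 0.39 in PUL.

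Of 21 heat shock genes tested, edgeR called 0. At an unadjusted p under 0.05, 3 were higher in S and 0 higher in LD over 6 pigs (4.21% and 3.06% of all genes), and 0 were so over 8 pigs (0.581% and 0.768%). HSPB8, a small heat shock protein, stood at 619 to 1009 CPM in S and 397 to 674 CPM in LD of the 6 pigs (0.54 ± 0.16, DESeq2 adjusted p = 0.0170), with 0.35 ± 0.16 over 8 pigs. Its partner BAG3 had 0.32 ± 0.29 over 8 pigs and 0.75 ± 0.20 over 6 (DESeq2 adjusted p = 0.0775).

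All 13 mitochondrially encoded genes had a positive log2 fold change over 8 pigs and over 6, with medians of 0.53 and 0.70. Over 8 pigs 0 of 13 reached an unadjusted p under 0.05 (0.581% of all genes were higher in S and 0.768% higher in LD). Over 6 pigs 9 of 13 were higher in S and 0 higher in LD at that level (4.21% and 3.06% of all genes), with 0 called. In PUL 12 of 13 were higher in S at that level (4.92% of all genes tested there), with a median of 0.62. These genes are cut from shared precursor transcripts and count as a single observation more than as 13. Their summed level was 63480 to 104803 CPM in S of the 6 pigs and 42143 to 74736 CPM in LD, higher in S in each. That order rests on the TMM scaling: as a plain share of library counts these genes were higher in S in 4 of 6 pigs (exact sign-flip permutation test, two-sided, p = 0.125, smallest possible 0.0312). Pig 10 (6.17% in S, 6.72% in LD) and pig 18 (6.59% and 6.60%) went the other way. In pig 14 the library labelled S held 15219 CPM and the one labelled LD 83428 CPM. CYTB, the cytochrome b gene, was at 224 CPM in the library labelled S of pig 14 and at 1027 CPM or more in every other library. The cytochrome b log2 fold change was 0.39 ± 0.51 over 8 pigs and 0.75 ± 0.23 over 6 (CYTB, edgeR adjusted p = 0.557, DESeq2 0.0366). ATP8 stood at 1480 CPM in the library labelled S of pig 8 and at 11.1 to 220 CPM elsewhere, and its reads overlap those of the neighbouring ATP6.

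Respiratory chain genes in the nucleus had medians near that of all genes. Of 42 tested, 0 differed at an unadjusted p under 0.05 over 8 pigs or over 6, with medians of 0.08 and 0.04. In PUL the median was 0.33, and 19 of 42 were higher in S at that level, against 4.92% of all genes tested there. The gene of this list with the smallest p over 8 pigs, ATP5F1A of the ATP synthase, ran from 1125 to 1929 CPM in S and from 876 to 1909 CPM in LD (0.29 ± 0.16). The citrate cycle list (24 genes) had medians of 0.05 and -0.09 and the fatty acid list (24 genes) 0.10 and 0.00. In the former the smallest p over 8 pigs belonged to PDK3, a pyruvate dehydrogenase kinase, at -0.28 ± 0.15 and lower in S in each of 8 pigs. In the latter it belonged to ACADM, the medium-chain acyl-CoA dehydrogenase, at 0.45 ± 0.23.

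**Figure D4:**
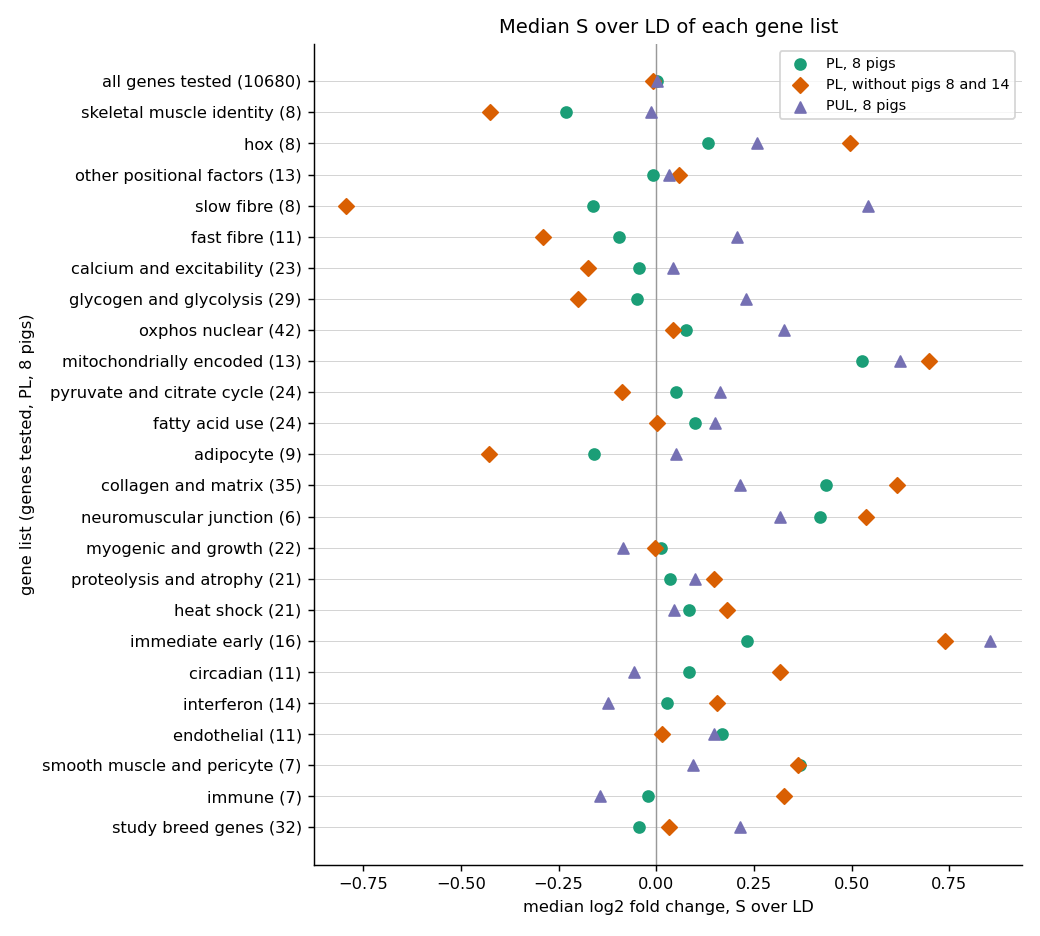
Median log2 fold change (S over LD) of each gene list with at least 5 tested genes, for PL with 8 pigs (green circles), PL without pigs 8 and 14 (orange diamonds) and PUL (purple triangles). All genes tested lie at 0, the early-response and mitochondrially encoded lists lie highest without pigs 8 and 14 (0.74 and 0.70), and the slow fibre list lies at -0.79 without any member at an unadjusted p under 0.05.

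Contractile genes of slow fibres spread widely between pigs in both muscles. TNNT1, the slow skeletal troponin T, ran from 80.6 to 6126 CPM in S (median 1452) and from 25.0 to 4608 CPM in LD (median 1902). TNNI1, the slow troponin I, ran from 63.8 to 3277 CPM in S and from 57.1 to 2861 CPM in LD. The lowest values came from LD of pig 7 and S of pig 18, whose partner libraries held 3620 and 2054 CPM of TNNT1. The highest S value came from the library labelled S of pig 14. TNNT1 had a log2 fold change of -0.19 ± 1.05 over 8 pigs and -1.04 ± 1.13 over 6, and S was higher in 3 of 8 pigs. The 8 slow fibre genes tested had medians of -0.16 and -0.79, and 0 reached an unadjusted p under 0.05 in either set. In PUL their median was 0.54.

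The 11 fast fibre genes had medians of -0.09 and -0.29, with 0 at an unadjusted p under 0.05. PVALB, parvalbumin, a calcium buffer of the fastest fibres, ran from 145 to 802 CPM in S and from 69.3 to 764 CPM in LD. Its log2 fold change was 0.48 ± 0.46 over 8 pigs and 0.53 ± 0.45 over 6. In PUL it was 1.61 ± 0.28 (edgeR adjusted p = 0.0956, DESeq2 8.88e-07), with S higher in 7 of 8 pigs. ATP2A1, the calcium pump of the fast sarcoplasmic reticulum, had -0.07 ± 0.42 and -0.34 ± 0.38. The genes of the adult myosin heavy chains MYH1, MYH2, MYH4 and MYH7 carried no symbol in the names used, so no value is given for them. Of the 8 muscle identity genes tested, 0 reached an unadjusted p under 0.05 over 8 pigs (median -0.23). Over 6 pigs 1 was lower in S with edgeR and 3 with DESeq2 (median -0.43), the former being MYBPC1, a myosin-binding protein of slow fibres, at -1.06 ± 0.38. Of all genes tested over 6 pigs, 331 of 10821 were lower in S at that level with edgeR and 369 of 18537 with DESeq2. ACTA1, skeletal actin, stood at 54404 to 93119 CPM in S and 72583 to 153622 CPM in LD (-0.44 ± 0.30 over 8 pigs and -0.50 ± 0.35 over 6).

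**Figure D5:**
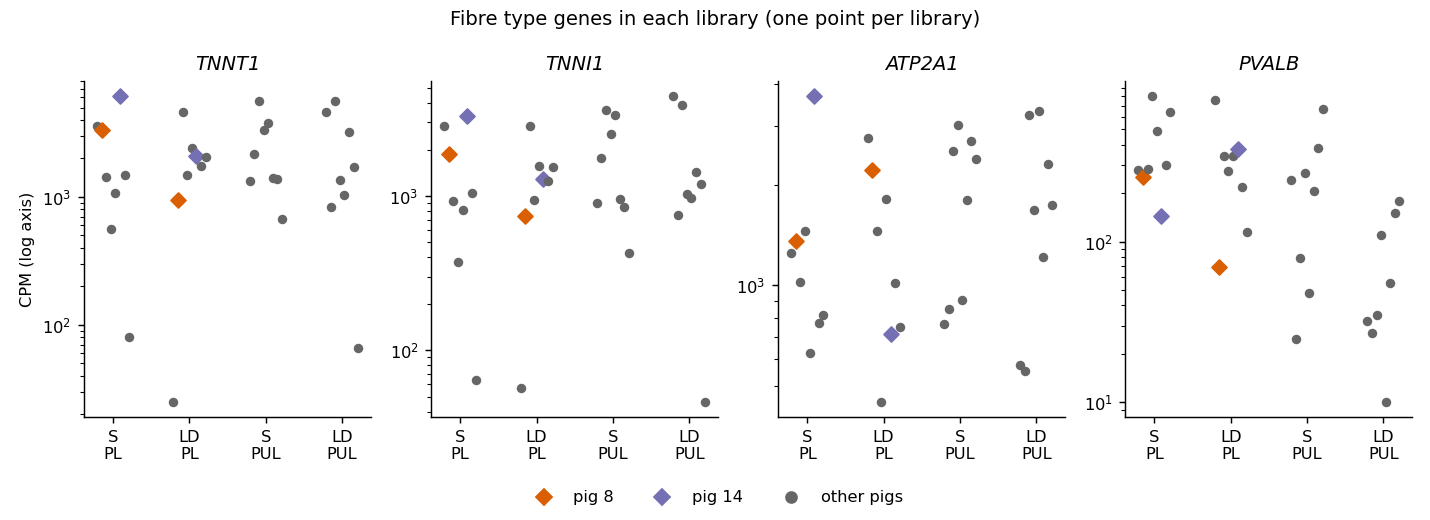
CPM on log axes of the slow troponins TNNT1 and TNNI1, the fast calcium pump ATP2A1 and parvalbumin (PVALB) in each library, by muscle and breed. In PL, S and LD overlap over most of their range in each panel, and single libraries with very low slow troponins occur in both muscles. In PUL, PVALB leans towards S.

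TPM2 codes for beta-tropomyosin, which lies along actin. TPM2 was at 2174 to 4089 CPM in S (median 3224) and 4613 to 12388 CPM in LD (median 8095) of the 6 pigs, with no overlap. The library labelled S of pig 14 held 15401 CPM, that of pig 8 held 7204 CPM, and the library labelled LD of pig 14 held 3153 CPM. The log2 fold change was -0.78 ± 0.46 over 8 pigs (adjusted p = 1) and -1.35 ± 0.28 over 6 (edgeR adjusted p = 0.267, DESeq2 1.45e-05). In PUL it was -0.40 ± 0.21, lower in S in 6 of 8 pigs.

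Other genes lower in S over the 6 pigs were picked after their values were seen and were of mixed function. MSS51, a regulator of mitochondrial metabolism in muscle, stood at 156 to 334 CPM in S and 332 to 528 CPM in LD of the 6 pigs, lower in S in each. Its log2 fold change was -0.49 ± 0.34 over 8 pigs, -0.86 ± 0.19 over 6 and -1.06 ± 0.15 in PUL, where edgeR called it (adjusted p = 0.0300). STRN4, a striatin scaffold of phosphatase complexes, was at 19.9 to 34.7 CPM in S and 26.2 to 105 CPM in LD of the 6 pigs (-0.95 ± 0.18, DESeq2 adjusted p = 0.00177), with -0.63 ± 0.39 over 8 pigs. In PUL the striatin gene had -0.08 ± 0.34 (STRN4), and with edgeR the breed difference passed for no gene. ANKRD1, a stretch-responsive ankyrin repeat protein, had -0.49 ± 0.50 over 8 pigs, -1.04 ± 0.28 over 6 and -1.98 ± 0.46 in PUL. G0S2, an inhibitor of fat breakdown, was lower in S in each of the 6 pigs (-0.99 ± 0.29, and -0.49 ± 0.53 over 8 pigs) and in 8 of 8 in PUL (-1.36 ± 0.25). PFKFB3, a regulator of glycolysis, had -0.71 ± 0.51 over 8 pigs and -1.34 ± 0.39 over 6.

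Of 7 smooth muscle and pericyte genes tested over 8 pigs, 6 had a positive log2 fold change. CNN1, calponin 1 of smooth muscle, went the other way and was lower in S in 7 of 8 pigs. It ran from 32.4 to 75.3 CPM in S (median 55.4) and from 49.2 to 139 CPM in LD (median 76.5), and pig 14 was the exception. The log2 fold change was -0.59 ± 0.17 over 8 pigs (adjusted p = 1) and -0.78 ± 0.16 over 6 (DESeq2 adjusted p = 0.00662), against 0.09 ± 0.16 in PUL. CNN1 also belongs to the genes that the study named as differing between the breeds. That list was chosen in part on these libraries, so its count is not independent. Of its 32 gene IDs tested, 1 was higher in S and 2 higher in LD at an unadjusted p under 0.05 over 8 pigs, and 5 and 1 over 6. Of all genes tested, 0.581% and 0.768% were so over 8 pigs, and 4.21% and 3.06% over 6. MAOB, monoamine oxidase B, was the member higher in S over 8 pigs, at 9.09 to 20.8 CPM against 5.37 to 12.4 CPM in LD (0.77 ± 0.23, adjusted p = 1).

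With the labels as given, 33 of 10680 genes (0.309%) had one direction in all 8 pigs, 10 higher in S and 23 higher in LD. Signs drawn at random give 0.781%, so the count is no sign of a difference, and the genes below are a description. ENSSSCG00000024577 stood at 269 to 562 CPM in S and 391 to 1083 CPM in LD, with a log2 fold change of -0.63 ± 0.14 over 8 pigs (edgeR adjusted p = 1). KCP, a secreted regulator of BMP signalling, was at 2.37 to 5.27 CPM in S and 1.19 to 2.76 CPM in LD (0.84 ± 0.21). B4GALT2, a galactosyltransferase, was at 1.65 to 4.69 CPM in S and 2.56 to 7.34 CPM in LD (-0.71 ± 0.18). FRZB (a secreted Wnt antagonist) and ITGA5 (the fibronectin receptor subunit) had 0.58 ± 0.16 and 0.56 ± 0.16 over 8 pigs, each higher in S in 7 of 8. All of these had an adjusted p of 1 over 8 pigs.

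No gene of the remaining lists was called by edgeR over 8 pigs or over 6, and medians are given in that order. Glycogen and glycolysis genes (29 tested) had medians of -0.05 and -0.20, with PRKAG2, an AMP-activated kinase subunit, at 0.56 ± 0.24 over 8 pigs and 0.71 ± 0.16 over 6. Calcium handling genes (23 tested) had -0.04 and -0.18, and RCAN1 was their member with the smallest p. Myogenic and growth genes (22 tested) had 0.01 and 0.00, with DKK3, a secreted Dickkopf family protein, at 1.12 ± 0.51 over 8 pigs. Proteolysis genes (21 tested) had 0.04 and 0.15, led by UCHL1, a deubiquitinase, at 0.72 ± 0.38. Circadian genes (11 tested) had 0.08 and 0.32, led by NPAS2 at 0.59 ± 0.26. Interferon genes (14 tested) had 0.03 and 0.16, led by IRF1 at 0.28 ± 0.22. Neuromuscular junction genes (6 tested) had 0.42 and 0.54, led by NCAM1, a neural cell adhesion molecule, at 0.35 ± 0.25.

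Markers of other cell types overlapped between the muscles, and their part in the results above was not tested. The summed level of 14 adipocyte markers was 217 to 544 CPM in S and 154 to 518 CPM in LD, higher in S in 3 of 8 pigs. CIDEC, a fat droplet protein, had -0.92 ± 0.49 over 8 pigs and -1.10 ± 0.52 over 6. The marker values that follow are over 8 pigs. Endothelial markers (11) summed to 174 to 430 CPM in S and 167 to 278 CPM in LD, higher in S in 5 of 8 pigs, and ROBO4 had 0.46 ± 0.15. Smooth muscle and pericyte markers (9) summed to 184 to 301 and 179 to 306 CPM. Of the 7 tested, 3 were higher in S and 1, CNN1, higher in LD at an unadjusted p under 0.05. Of all genes, 0.581% and 0.768% were so. The median log2 fold change of the 7 was 0.37, and 0 were called. Immune markers (10) summed to 16.9 to 85.7 CPM in S and 16.5 to 223 CPM in LD, highest in the library labelled LD of pig 14, and CSF1R, the macrophage growth factor receptor, had -0.15 ± 0.25. The 3 red cell genes summed to 169 to 681 and 100 to 1048 CPM, nearly all from beta globin, whose gene HBB had 0.19 ± 0.44, an uncertain value since near-identical globin copies can share reads. SLC4A1, the red cell anion exchanger, stood at 46.2 CPM in the library labelled S of pig 8 and at 1.12 to 3.26 CPM in the other 15.

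Tendon markers (8) summed to 16.1 to 58.9 CPM in S and 11.2 to 83.4 CPM in LD, with TNMD, the defining tenomodulin, at 0 in 6 of 16 libraries, and FMOD, given above, had the smallest p of that list. Schwann cell markers (4) summed to 8.58 to 16.0 and 8.59 to 14.1 CPM, with CNP at -0.10 ± 0.14. Hepatocyte markers (17) summed to 12.7 to 36.1 and 15.2 to 28.8 CPM, with APOB at 0 in 16 of 16 libraries, and APOA1, with the smallest p of that list, had 0.43 ± 0.18.

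The S over LD difference of PL was then set beside that of PUL. In one fit of both breeds, the difference between their S over LD changes passed for 0 of 11563 genes (0%), with 294 at an unadjusted p under 0.05 (2.54%), and DESeq2 called 2. CYRIA, a regulator of RAC1 signalling, had the smallest p: -0.37 ± 0.15 in PL, 0.75 ± 0.16 in PUL and a difference of -1.11 ± 0.21 (adjusted p = 0.465). Without pigs 8 and 14 its difference was -1.05 ± 0.22 (CYRIA, adjusted p = 0.981). CEP250 and 3 genes without a symbol came next, each with an adjusted p of 0.9996, and CEP250 was at 0 in most LD libraries.

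The directions of PL and PUL were then counted side by side, with no test. Genes at an unadjusted p under 0.05 made up 1.35% of those tested over 8 PL pigs and 7.27% over 6. Of the 138 such genes over 8 pigs that were tested in PUL, 90 had the same direction there (65.2%), against 54.4% of all 10465 genes. Over 6 pigs it was 609 of 755 (80.7%), against 57.4% of 10506. Of the 66 genes called by DESeq2 over 6 pigs and tested in PUL, 64 had the same direction (97.0%), and 39 of them also reached an unadjusted p under 0.05 in PUL. The breeds share no library, but the 6 pigs were chosen with PUL genes, so the second and the third share are not an independent check of the omission.

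Isoform counts were tested in the same way. Of 11387 isoforms tested over 8 pigs, 0 were called, with 146 at an unadjusted p under 0.05 (1.28%), and DESeq2 called 3. Over 6 pigs 1 of 11560 was called (0.00865%), ENSSSCT00000012800, with a log2 fold change of -4.00 ± 0.30 (adjusted p = 0.00888). The isoforms were not paired with genes in the sources used here, so none is named by gene.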

How the data were processed

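RNA was sequenced from S and LD of 16 gilts, and the 16 PL libraries were compared here. Per the study's methods and the submitters' processing notes, the authors depleted ribosomal RNA, sequenced single reads, converted them with CASAVA 1.8.2, aligned them with Bowtie2 to Sscrofa 10.2 and estimated counts with RSEM. The deposited values are estimated counts (expected counts) per gene and per isoform; those of the gene table were rounded to whole numbers. Per the study's methods, libraries were pooled and run as technical replicates against lane effects. The pool of each library was not used here, and strand is not given in the sources used here. The tables held 25322 gene IDs, of which 11808 had a symbol in the names used, and 30585 isoform IDs.

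Genes were kept with filterByExpr and tested with edgeR 4.0.16 (R 4.3.3) by the quasi-likelihood test, with TMM factors, the pig as a block and Benjamini-Hochberg adjustment over all genes tested. A gene was called at an adjusted p of at most 0.05 and a fold change of at least 1.3. CPM used TMM factors of all 32 libraries, with 0.5 added for log2 ratios. DESeq2 1.42.0 and limma 3.58.1 (voom) were alternatives, with other factors, filters and pigs left out in turn. Simulated data were used only for the paired S over LD fit of genes in PL, and their outcome is not given here. The library totals were 8.82 to 23.0 M (mega) counts. In the paired fits, p-values rest on how the S over LD difference varies from pig to pig.

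The numbers pair S and LD because both come from one animal by the labels. The deviations of the muscles of a pig correlated at 0.06 to 0.62 across 11441 genes in 6 pigs, at -0.05 in pig 7 and at -0.50 in pig 14. No pair of libraries was within sampling noise.

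The comparison, its 28 lists (523 of 738 entries had a gene ID) and the tests were chosen with earlier results of these data known. The rule named, of each list, the called genes with the smallest p or else the 1 tested gene with the smallest p, a fixed set of fibre and blood genes, and the 5 genes with the smallest p of the breed difference. The other genes named, and the omission of pigs 8 and 14, were chosen after their values were seen. Isoforms could not be assigned to genes, so the rule on them was not applied. Results for some genes are not reported here.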

Additional observations from a re-analysis of the deposited data

Results flagged for a closer look

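Dixon's gap test for 8 samples was applied to 74 groups of 8 libraries (37 genes in S and in LD). In 12 groups the gap of a library to its nearest neighbour passed the critical value. That is 16.2% of the groups, while chance flags about 1 in 20 of groups chosen without regard to their values. The 37 genes include those called in PUL and those called without pigs 8 and 14. Their choice can raise the share, which is therefore a description. The library labelled LD of pig 14 gave 6 of the 12: ZIC1 at 0.0638 CPM, ZIC4 at 0 CPM, HOXC6 at 0.255 CPM, HOXA11 at 0.510 CPM, MSS51 at 109 CPM and DKK3 at 6.12 CPM. The first 3 and MSS51 were the lowest LD values, and HOXA11 and DKK3 the highest. The library labelled S of pig 14 held the highest S value of ATP2A1, 3681 CPM. The library labelled S of pig 8 held 46.2 CPM of SLC4A1, and the library labelled LD of that pig 2.75 CPM of ELN. LD of pig 7 was low in the slow troponins, at 25.0 CPM of TNNT1 and 57.1 CPM of TNNI1. S of pig 12 was low in NPAS2, at 0.564 CPM. The cause of these values was not tested.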

How the results depend on the processing

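With 8 pigs, edgeR called 0 genes under each alternative but the following: DESeq2 called 1, and with pigs 8 and 14 left out (an alternative chosen after seeing the data) edgeR called 3, DESeq2 78 and edgeR without the replicate block 6. Over 8 pigs the fit without the replicate block also called 0, with 264 genes at an unadjusted p under 0.05 against 144. Each of the 8 pigs left out in turn gave 0 calls. Over the 6 pigs, no filter gave 23 calls, a minimum of 10 counts in every library 0, and one pig left out 1 to 2. DESeq2 with one of the 6 pigs left out gave 23 to 210, the highest without pig 10 and the lowest without pig 15, with 26 without pig 9 and 37 without pig 12. In PUL, DESeq2 called 125 and edgeR with one pig left out 3 to 15. DESeq2 called 2 genes for the breed difference and 3 isoforms over 8 pigs, and 1 isoform was called by edgeR without pigs 8 and 14. Library size alone moved the median log2 fold change of all genes to 0.11 over 8 pigs and 0.17 over 6, and the split at an unadjusted p under 0.05 to 90 genes higher in S and 27 in LD over 8 pigs, and 598 and 64 over 6. Of 149 genes under 22 settings, 4 changed sign by more than the SE of their value over 8 pigs, smaller changes of sign not being listed: CCN1 (-0.081 without the replicate block and -0.080 in the exact test), ENSSSCG00000010370 (-0.40 and -0.41), ENSSSCG00000026492 (-0.28 and -0.29) and HBB (-0.28 without pigs 8 and 14 and the replicate block). COL6A1, not among them, went from 0.57 over 8 pigs to -0.20 over 6. The cause was not tested. Low counts of HOXA11 and HOXA10 limit what 8 pigs can show of them.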
